A study of Mus musculus with 8 samples.

Results

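*Cxcr4*, which encodes the receptor that the study proposes for TFF2, was described together with *Cxcl12*, *Ackr3* and the chemokine receptor genes *Cxcr2*, *Ccr1*, *Ccr2*, *Ccr3*, *Ccr7* and *Cx3cr1*. These 9 genes were taken by name, and every probe set to which the array annotation gives one of them as its only symbol was kept. This gave 14 probe sets, out of 20380 probe sets with 1 symbol for 12393 genes. Immature myeloid cells (IMCs), sorted from spleen as CD11b+Gr-1+, came from 4 male Tff2-/- mice on a C57BL/6 background, 16 weeks old. The mice had drunk water with 3% DSS, which injures the colon, for 5 days and were killed on day 14 after it. Every mouse supplied 2 cultures, kept for 7 days. The control culture received GM-CSF (gene name *Csf2*, 5 nM by the sample labels, whereas the methods state another concentration), and its partner received the same GM-CSF plus 3 µM mouse recombinant TFF2 (rTFF2). Both groups therefore lacked *Tff2* of their own and both were exposed to GM-CSF, and no culture without GM-CSF or from wild-type mice was compared. Each of the 8 cultures gave 1 Affymetrix array, with n = 4 mice in each group.

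Chemokines are small secreted proteins that steer leukocytes, and their receptors are G-protein-coupled receptors that signal through the Gi family and are then phosphorylated, bound by arrestins and internalized. CXCR4 binds CXCL12, a chemokine made by stromal cells that holds progenitors and granulocytes in bone marrow. ACKR3 takes up the same ligand without G-protein signalling. CXCR2 directs neutrophils, CCR2 inflammatory monocytes, CCR7 mature dendritic cells to lymph nodes, CCR3 eosinophils and basophils, and CX3CR1 patrolling monocytes and tissue macrophages.

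The values are GCRMA signals on the log2 scale, so that a difference of 1 is a doubling. A signal is a property of its probe set, and levels of different probe sets were not set against each other. Background was taken as 3.22, the 95th percentile of all signals of 66 probe sets of 44 genes that other tissues use. Of those 44 genes 5 had a group mean above it. Array medians were 4.09 to 4.12 in the control cultures and 4.14 to 4.20 with rTFF2, 13078 to 13135 probe sets lay above background on each array, and pairs of arrays correlated at 0.985 to 0.998. All 10 measured myeloid identity genes, among them *Itgam* (CD11b), lay above background in both groups. Markers of lymphoid, stromal, endothelial, erythroid and platelet cells lay mostly under it in both groups. Under it were 12 of 15 T and NK cell genes and 10 of 11 B cell genes. So were 13 of 18 stromal and endothelial genes and 6 of 9 erythroid and platelet genes. *Pf4* of the last list stood above it, at 11.75 in the control cultures and 13.32 with rTFF2. A group mean lay above it for 14 of 16 dendritic cell, 7 of 11 basophil and mast cell and 4 of 6 eosinophil genes.

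The promoters of *Cxcr4*, *Cxcr2* and *Ccr1*, whose signals rose, and of *Ccr2*, whose signals were lower in each mouse, are shown so that the genes can be compared at their start sites. The sequences are from RefSeq on the GRCm38.p6 build, 250 bases before to 50 bases after the start. Of the 9 genes 8 matched an entry, and *Ccr7* did not, so its promoter is not shown. Capitals mark matches on either strand to 5 short motifs, and shares are of 32851 promoters of the same length. The TATA box TATAAAA was held by 5.48% of them. For the GC box GGGCGG the share was 35.7%. The NRF1 core CGCATGCG was in 1.87%. A core bound by the myeloid factor PU.1, GAGGAA, was in 28.3%. The share for CCAAT was 37.4%.
Cxcr4, chr1:128592250-128592549, minus strand: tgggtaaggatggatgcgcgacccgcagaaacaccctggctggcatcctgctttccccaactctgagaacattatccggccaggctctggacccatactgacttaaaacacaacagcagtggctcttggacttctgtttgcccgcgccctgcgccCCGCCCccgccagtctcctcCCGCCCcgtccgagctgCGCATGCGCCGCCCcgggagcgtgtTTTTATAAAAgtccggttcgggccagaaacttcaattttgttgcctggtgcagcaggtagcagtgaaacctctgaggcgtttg
Cxcr2, chr1:74153744-74154043, plus strand: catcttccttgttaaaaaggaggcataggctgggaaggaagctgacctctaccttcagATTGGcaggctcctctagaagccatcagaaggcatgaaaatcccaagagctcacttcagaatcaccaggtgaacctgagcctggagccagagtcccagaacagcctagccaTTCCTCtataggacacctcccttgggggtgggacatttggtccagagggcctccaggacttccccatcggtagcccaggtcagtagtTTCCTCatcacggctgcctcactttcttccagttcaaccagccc
Ccr1, chr9:123968643-123968942, minus strand: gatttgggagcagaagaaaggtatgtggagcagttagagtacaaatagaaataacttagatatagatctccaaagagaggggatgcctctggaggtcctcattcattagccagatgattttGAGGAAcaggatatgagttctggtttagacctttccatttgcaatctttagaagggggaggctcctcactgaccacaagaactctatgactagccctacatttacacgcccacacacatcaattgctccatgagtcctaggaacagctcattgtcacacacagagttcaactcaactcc
Ccr2, chr9:124101933-124102232, plus strand: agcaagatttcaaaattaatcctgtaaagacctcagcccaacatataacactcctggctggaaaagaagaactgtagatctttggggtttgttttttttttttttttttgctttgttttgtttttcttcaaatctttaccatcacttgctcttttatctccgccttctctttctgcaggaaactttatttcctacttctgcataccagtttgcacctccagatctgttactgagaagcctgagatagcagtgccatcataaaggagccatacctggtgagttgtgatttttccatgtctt
The *Cxcr4* promoter held GC boxes that begin 95, 75 and 50 bases before the start, the NRF1 core at 58 bases, directly before the last GC box, and TATAAAA at 30 bases, which overlaps a match on the other strand at 33 bases. The *Cxcr2* promoter held GAGGAA on the minus strand and CCAAT, and that of *Ccr1* held GAGGAA. These letters were not found in the *Ccr2* window. Of the bases, 59.3% were G or C for *Cxcr4*, 54.0% for *Cxcr2*, 44.0% for *Ccr1* and 38.0% for *Ccr2*, and the median over all promoters was 52.7%. A match describes the sequence and was not tested as a binding site.

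With rTFF2 the signals of *Cxcr4*, *Cxcr2* and *Ccr1* were higher and that of *Ccr7* was lower, each in 4 of 4 mice. Of the 14 probe sets, 5 passed the limma test at an adjusted p under 0.05, 4 of them higher and 1 lower. They belong to 4 of the 9 genes. Over all 22626 probe sets 21.8% passed, 11.7% higher and 10.1% lower. The groups did not overlap in 4 of the 14, against 25.5% of all probe sets. The median difference was -0.15 over the 14 probe sets and -0.02 over all. With the mouse as a block, which compares the cultures of the same animal, 8 of the 14 passed, 4 higher and 4 lower, against 25.7% of all, 12.0% lower. The 3 added by the block were the probe sets of *Ccr2*, which were also lower in 4 of 4 mice. In 5 of the 14, those of *Cxcl12*, *Ccr3*, the lower one of *Cx3cr1* and the lowest of *Ccr2*, both group means were under background.

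**Figure D1:**
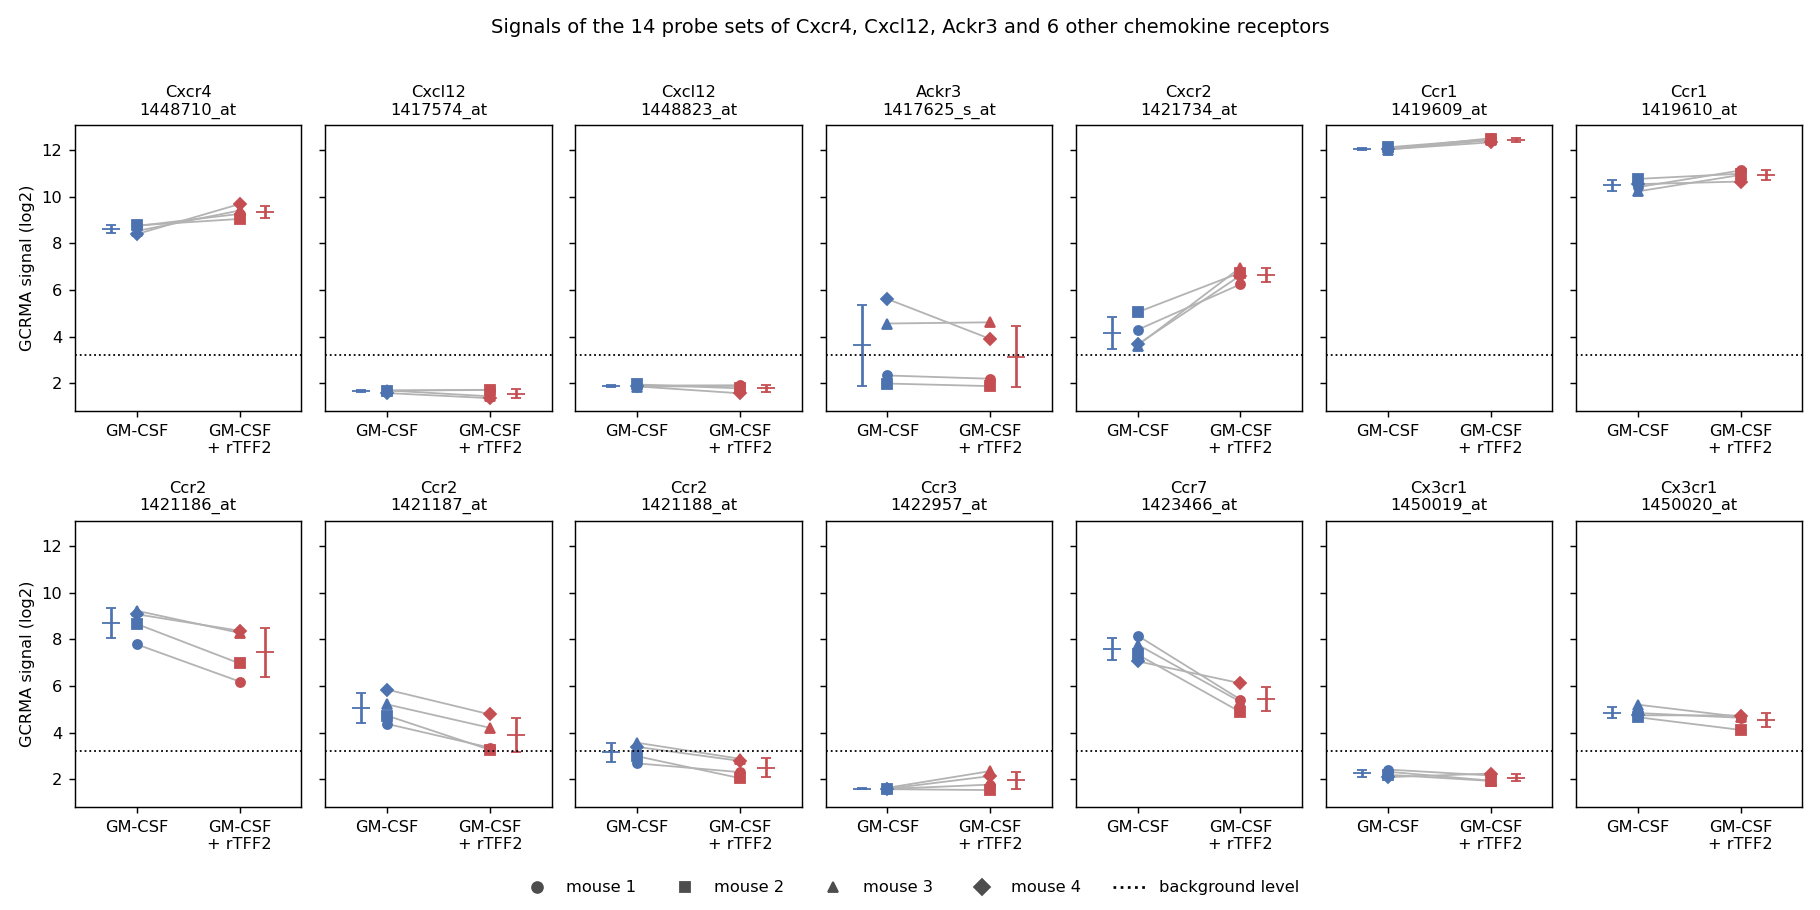
GCRMA signal (log2, vertical axis) of each of the 14 probe sets in the control cultures (blue) and the rTFF2 cultures (red), with a grey line joining the cultures of a mouse, bars for mean and SD (n = 4) and background (3.22) dotted. *Cxcr4*, *Cxcr2* and the first *Ccr1* probe set lie higher and *Ccr7* lower in all rTFF2 cultures than in any control culture, and the lines of *Ccr2* all fall.

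*Cxcr4* had a single probe set, 1448710_at. In the control cultures of mice 1 to 4 its signals were 8.75, 8.77, 8.54 and 8.40, and with rTFF2 they were 9.27, 9.05, 9.41 and 9.69. Every rTFF2 culture stood above every control culture. The mean went from 8.61 ± 0.18 (SD, n = 4) to 9.36 ± 0.27 (SD, n = 4), a 1.67-fold rise (0.74 log2 units, standard error (SE) 0.14, 95% interval 0.43 to 1.06, adjusted p = 0.0055 from limma). Within mice 1 to 4 the differences were 0.52, 0.28, 0.88 and 1.29. Mouse 4 had the lowest control signal and the highest signal with rTFF2, while mouse 2 had the highest and the lowest in the same order. The means of the mice thus spread little (SD 0.06) compared with their differences (SD 0.44). With the mouse as a block the adjusted p was 0.014. *Cxcr4* passed in all 17 alternatives that were fitted, with differences from 0.63 to 1.09 and adjusted p from 0.0027 to 0.021. A separate test for a change beyond 1.5-fold was not passed by *Cxcr4*.

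Among 7515 genes above background, the genes whose signals ran most like those of *Cxcr4* over the 8 arrays were *Mogat2* (Pearson r = 0.99), *Pglyrp1*, *Dicer1*, *Arrb2* and *Cpne2* (r = 0.98 each). The arrays hold both groups, so a gene that differs between the groups correlates with *Cxcr4* for that reason alone. After the group means were removed, the highest were *Gabpb1* (r = 0.98), *Rpl39* (0.96), *Mogat2*, *Rps6kb2* and *Cpne2* (0.94 each), so that *Mogat2* and *Cpne2* were among the first 5 by both measures. These correlations describe 8 arrays that share 4 animals and were not tested.

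*Cxcl12*, the chemokine ligand of CXCR4, was under background on all 8 arrays with both of its probe sets. The means of 1417574_at were 1.67 ± 0.06 (SD, n = 4) and 1.56 ± 0.18 (SD, n = 4), and those of 1448823_at were 1.90 ± 0.04 and 1.80 ± 0.16. Neither passed (difference -0.10 for each, adjusted p = 0.48 and 0.44). *Mif*, which encodes another ligand of CXCR4 and CXCR2, was well above background, at 12.46 ± 0.58 (SD, n = 4) against 12.64 ± 0.35 (SD, n = 4), and did not pass (difference 0.19, adjusted p = 0.68).

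*Ackr3*, measured by 1417625_s_at, separated the animals. The control signals of mice 1 to 4 were 2.34, 2.00, 4.57 and 5.62 and those with rTFF2 were 2.20, 1.88, 4.62 and 3.91. Mice 1 and 2 lay under background in both cultures, and mice 3 and 4 above it in both. The difference of the means was -0.48 with a 95% interval from -2.47 to 1.51 (adjusted p = 0.75, and 0.26 with the block). It came mainly from mouse 4, whose signals differed by -1.71, whereas the other 3 mice differed by -0.14, -0.11 and 0.05. Without the control culture of mouse 4 the sign turned, to 0.18. With the *Actb* covariate, the excess of 3′ over 5′ signal that reflects RNA integrity, the difference was -2.86 (adjusted p = 0.19). That excess did not overlap between the groups, so here and below this fit cannot separate RNA quality from rTFF2. The suffix _s_at marks a probe set whose probes can match several transcripts.

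*Cxcr2*, the receptor for CXCL1, CXCL2 and CXCL5 on neutrophils, showed the largest rise of the 14 probe sets. The control signals of mice 1 to 4 for 1421734_at were 4.30, 5.05, 3.62 and 3.67, and those with rTFF2 were 6.25, 6.75, 6.96 and 6.63. All lay above background and the groups did not overlap. The means were 4.16 ± 0.67 (SD, n = 4) and 6.65 ± 0.30 (SD, n = 4), a 5.60-fold rise (2.49 log2 units, SE 0.30, adjusted p = 6.5e-04). The mice differed by 1.95, 1.70, 3.34 and 2.96, and mouse 2, with the highest control signal, rose least. The difference shrank to 1.38 when 32 was added to each linear signal, and grew to 3.29 with the *Actb* covariate. *Cxcr2* passed in both and in the other 15 alternatives.

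Markers of neutrophils moved with *Cxcr2*. Of 13 measured, 12 rose and none fell (12.4% and 11.2% of all genes), and none was under background in both groups. The summed linear signal of the list was 38156 to 71166 in the control cultures and 93020 to 108539 with rTFF2. Among them *Csf3r*, the receptor of G-CSF, went from 6.07 ± 0.68 (SD, n = 4) to 8.46 ± 0.33 (SD, n = 4), and the collagenase gene *Mmp8* (0.50), the elastase gene *Elane* (3.33) and *Lcn2* (1.31) rose too. In RNA from whole cultures, a change in the number of cells of a type and a change in the RNA of each cell cannot be told apart. The part of these markers in the *Cxcr2* and *Cxcr4* results was not tested.

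*Ccr1*, a receptor of myeloid cells for CCL3, CCL5, CCL6 and CCL9, had signals close together within each group. For 1419609_at the control signals of mice 1 to 4 were 12.05, 12.12, 12.03 and 12.03, and those with rTFF2 were 12.51, 12.47, 12.43 and 12.34. The groups did not overlap. The means were 12.06 ± 0.04 (SD, n = 4) and 12.44 ± 0.07 (SD, n = 4), a 1.30-fold rise (0.38 log2 units, SE 0.06, adjusted p = 0.0034). The second probe set, 1419610_at, gave 10.42, 10.77, 10.23 and 10.54 against 11.13, 10.99, 10.94 and 10.66, so that the rTFF2 culture of mouse 4 lay below the control culture of mouse 2. Its difference was 0.44 (SE 0.13, adjusted p = 0.043), higher in 4 of 4 mice. With the *Actb* covariate the differences were larger, 0.43 and 0.68, and neither passed (adjusted p = 0.051 and 0.088). The second probe set also failed after median centring (0.079), with the offset of 32 (0.073), and without control replicate 1 (0.11), 3 (0.098) or 4 (0.072) or rTFF2 replicate 1 (0.11), 2 (0.091) or 3 (0.096).

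*Ccr2*, the receptor for CCL2 and CCL7, was lower with rTFF2 in each mouse by each of its 3 probe sets, and the mice also differed from each other. For 1421186_at the control signals of mice 1 to 4 were 7.78, 8.66, 9.22 and 9.07 and those with rTFF2 were 6.19, 6.97, 8.28 and 8.37. Mice 3 and 4 stood above mice 1 and 2 in both groups, and the groups overlapped. The means were 8.69 ± 0.65 (SD, n = 4) and 7.45 ± 1.06 (SD, n = 4). The difference of -1.24 had a standard error of 0.50 between the groups, which did not pass (adjusted p = 0.11), and of 0.17 with the mouse as a block, which did (adjusted p = 0.0026). Within mice 1 to 4 it was -1.59, -1.69, -0.95 and -0.71.

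The other *Ccr2* probe sets behaved alike. For 1421187_at the signals were 4.38, 4.73, 5.21 and 5.85 against 3.36, 3.26, 4.21 and 4.78, a difference of -1.14 with adjusted p = 0.069, and 4.8e-04 with the block. It also passed without rTFF2 replicate 4 (-1.43, adjusted p = 0.029). For 1421188_at only the control cultures of mice 3 and 4, at 3.57 and 3.39, lay above background, and its difference of -0.65 (adjusted p = 0.077, and 0.0039 with the block) is that of a dim probe set. Without control replicate 1 it passed (-0.81, adjusted p = 0.044). Of 5 measured markers of inflammatory monocytes, which carry CCR2, 2 rose and none fell (12.4% and 11.2% of all genes), namely *Vcan*, a proteoglycan gene (2.35), and *Cd14*, a co-receptor for lipopolysaccharide (0.83). The summed linear signal of all 5 was 17476 to 19846 in the control cultures and 23498 to 30776 with rTFF2. This sum also holds *Chil3*, *Fn1* and *F13a1*, which did not pass (adjusted p = 0.17, 0.70 and 0.19).

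*Ccr7*, the receptor for CCL19 and CCL21, showed the largest decrease. The control signals of mice 1 to 4 for 1423466_at were 8.16, 7.35, 7.78 and 7.06, and those with rTFF2 were 5.42, 4.88, 5.32 and 6.12. The groups did not overlap. The means were 7.59 ± 0.48 (SD, n = 4) and 5.44 ± 0.51 (SD, n = 4), a 4.44-fold decrease (-2.15 log2 units, SE 0.29, adjusted p = 0.0010). Mice 1 to 3 fell by 2.74, 2.47 and 2.45 on the log2 scale and mouse 4 by 0.94. With the *Actb* covariate the difference was -1.79 and did not pass (adjusted p = 0.054).

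Markers of dendritic cells moved with *Ccr7*. Of 16 measured, 15 fell and none rose (11.2% and 12.4% of all genes), and the summed linear signal of the list was 37257 to 47271 in the control cultures and 9017 to 13894 with rTFF2. *Cd209a*, which is among the 15, and *Flt3* were under background in both groups. The maturation antigen gene *Cd83* went from 7.66 ± 0.18 (SD, n = 4) to 5.78 ± 0.14 (SD, n = 4), and *Zbtb46*, which encodes a transcription factor found in classical dendritic cells (-3.42), the chemokine gene *Ccl22* (-3.03) and the MHC class II gene *H2-Eb1* (-2.75) fell too. The part of these markers in the *Ccr7* result was not tested.

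*Ccr3* was under background on all 8 arrays. The signals of 1422957_at were 1.59, 1.58, 1.63 and 1.59 in the control cultures and 1.77, 1.54, 2.35 and 2.14 with rTFF2. Its difference of 0.35 did not pass (adjusted p = 0.14), and passed without rTFF2 replicate 2 (0.49, adjusted p = 0.029) and without both cultures of mouse 2 (0.48, adjusted p = 0.043), with all signals still under background. Markers of cells that carry CCR3 are given beside it. Of 6 eosinophil markers 4 rose and none fell (12.4% and 11.2% of all genes), with a summed linear signal of 810 to 3293 in the control cultures and 4416 to 10885 with rTFF2. *Il5ra* and *Gata1* were under background, and *Gata1* is among the 4. *Siglecf*, a surface lectin gene of eosinophils, had a difference of -0.51, lower in 4 of 4 mice, that passed only with the mouse as a block (adjusted p = 0.38, and 0.0030 with the block). Of 11 basophil and mast cell markers 7 rose and none fell, with sums of 211 to 517 and 4269 to 7834. *Il4*, which is among the 7, *Cma1*, *Mcpt4* and *Tpsb2* were under background.

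*Cx3cr1*, the fractalkine receptor gene, did not pass. The signals of 1450020_at were 4.84, 4.66, 5.20 and 4.74 in the control cultures and 4.64, 4.12, 4.67 and 4.73 with rTFF2, all above background and overlapping. The difference of -0.32 had a 95% interval from -0.68 to 0.04 (adjusted p = 0.19, and 0.066 with the block) and was lower in 4 of 4 mice. It was -0.18 without rTFF2 replicate 2 and -0.21 without control replicate 3. The second probe set, 1450019_at, was under background in both groups, with means of 2.26 and 2.07 (adjusted p = 0.23).

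**Figure D2:**
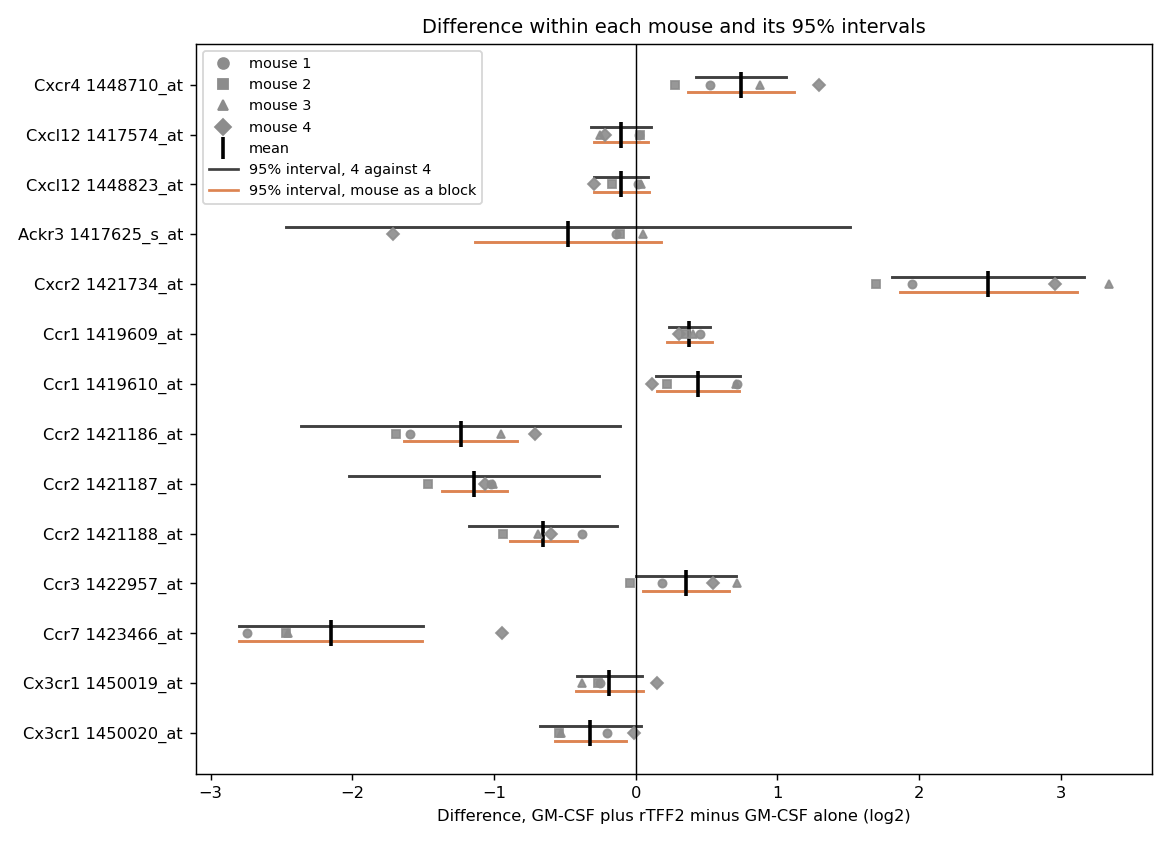
Difference between the rTFF2 and the control culture (log2, horizontal axis) of each mouse (grey symbols) for the 14 probe sets, with the mean (vertical tick) and its 95% interval as 4 arrays against 4 (dark line) and with the mouse as a block (orange line). For *Ccr2* the orange lines are much shorter than the dark ones, while for *Cxcr4*, *Cxcr2* and *Ccr7* both are of similar length.

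*Ccr1*, *Ccr3* and *Ccr2* lie close to each other in a row of receptor genes on chromosome 9. In the order of the RefSeq annotation the row runs from *Ccr9* over *Fyco1*, *Cxcr6*, *Xcr1*, *Ccr1*, *Ccr1l1* and *Ccr3* to *Ccr2*. Only *Ccr1*, *Ccr2* and *Fyco1*, which encodes an adaptor for vesicle transport and no chemokine receptor, lay above background. Of these, *Ccr1* was higher with rTFF2 and *Ccr2* lower in every mouse, and *Fyco1* had a difference of 0.48 that did not pass (adjusted p = 0.10). The 5 others differed by -0.19 to 0.35 and stayed under background.

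**Figure D3:**
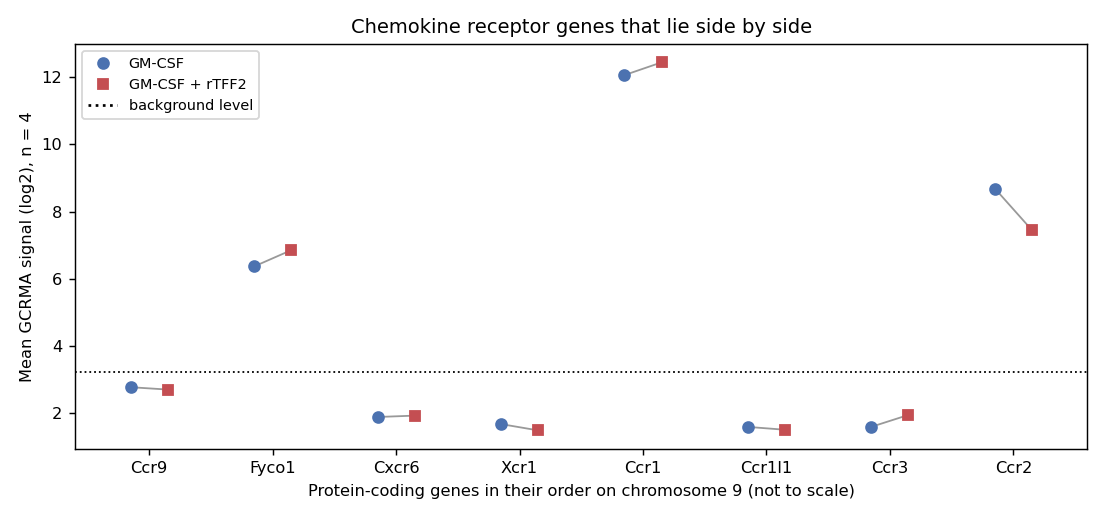
Mean GCRMA signal (log2, vertical axis, n = 4) with GM-CSF alone (circles) and GM-CSF plus rTFF2 (squares) of the genes in their order on chromosome 9, not to scale, with the background level as a dotted line. The signals of *Ccr1* and *Fyco1* lie higher with rTFF2 and that of *Ccr2* lower, and the others lie under the dotted line.

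Of the 14 chemokine receptor genes measured besides these, 13 lay under background in both groups, namely *Cxcr3*, *Cxcr5*, *Cxcr6*, *Ccr4*, *Ccr6*, *Ccr8*, *Ccr9*, *Ccr10*, *Ccr1l1*, *Xcr1*, *Ackr1*, *Ackr2* and *Ackr4*. *Cxcr1* was not named on the array. One gene rose and 1 fell, against 12.4% of all genes higher and 11.2% lower, and the median difference was -0.06 (-0.03 over all genes). *Ccrl2*, an atypical receptor that presents chemerin, had signals of 4.52, 4.68, 4.91 and 4.96 in the control cultures of mice 1 to 4 and 6.12, 5.26, 5.80 and 5.57 with rTFF2. The groups did not overlap, and the rise was 1.89-fold (0.92 log2 units, SE 0.18, adjusted p = 0.0060). With the *Actb* covariate this rise did not pass. *Ccr6*, a receptor for CCL20, passed with a difference of -0.58 (adjusted p = 0.0019) between means of 2.90 and 2.32, both under background.

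Of 18 measured ligand genes of the receptors, 8 rose and 2 fell, with a median difference of 0.20, where 12.4% of all genes rose and 11.2% fell. *Cxcl5*, a ligand of CXCR2 that lay under background in the control cultures (2.66 ± 0.39, SD, n = 4), stood at 8.63 ± 0.36 (SD, n = 4) with rTFF2, which is at least 42.4-fold higher (adjusted p = 1.9e-06). *Cxcl1*, also a CXCR2 ligand, rose by 1.99 (adjusted p = 8.1e-04), as did *Cxcl2* (0.68) and the platelet chemokine gene *Ppbp* (2.76). The CCR2 ligand genes *Ccl7* (2.97, adjusted p = 0.0012) and *Ccl2* (1.38, adjusted p = 0.0016) rose, while the signals of *Ccr2* itself were lower. Those of CCR1 were mixed, with *Ccl9* higher by 0.23, *Ccl5* lower (-2.18, adjusted p = 0.0015), and *Ccl3* (0.17), *Ccl4* (-0.13) and *Ccl6* (0.21, adjusted p = 0.056) not past the threshold. The second probe sets of *Ccl6* (0.23, adjusted p = 0.022) and *Ccl9* (0.29, adjusted p = 0.055) lay on the other side of it. *Cx3cl1*, the ligand of CX3CR1, fell from 3.35 ± 0.06 (SD, n = 4) to a mean under background, at least 1.09-fold lower (adjusted p = 5.1e-04). The eotaxin gene *Ccl24* rose by 0.26 with both means under background.

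Of 10 measured receptors for other chemoattractants 7 rose and 1 fell (all genes 12.4% and 11.2%), with a median difference of 0.64. *Fpr2*, a formyl peptide receptor gene, rose by 0.73 (adjusted p = 3.8e-04), *C5ar1*, the receptor for the complement fragment C5a, by 1.20 (adjusted p = 4.3e-04) and *S1pr1*, a sphingosine 1-phosphate receptor gene whose control mean was under background, was at least 1.77-fold higher (adjusted p = 7.5e-04). *Cmklr1*, the signalling receptor for chemerin, passed with both means under background (2.41 and 2.95). The gene that fell, *Ptafr*, also had both means under background (2.70 and 2.18), and its second probe set did not pass (adjusted p = 0.49).

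Of 18 measured genes that carry the signal from the receptors, 3 rose and 1 fell, beside 12.4% of all genes higher and 11.2% lower, with a median difference of 0.10. The G-protein subunit gene *Gng12* rose by 1.23 (adjusted p = 9.1e-05), *Was*, an activator of actin assembly, by 0.42 and *Dock2*, an activator of Rac, by 0.19 (adjusted p = 0.040, and 0.067 with the block, where *Rac2* passed instead). *Pik3cg*, the lipid kinase driven by G-protein βγ subunits, fell by 0.51 (adjusted p = 0.039), and its second probe set gave -0.18 and did not pass (adjusted p = 0.46). The Gi subunit genes *Gnai2* (0.09) and *Gnai3* (0.12) did not pass (adjusted p = 0.36 and 0.20).

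Of 24 genes that switch off, internalize or degrade such receptors or trim their ligands, 2 rose and 5 fell, with a median difference of -0.08. Of all genes 12.4% were higher and 11.2% lower. *Grk6*, a kinase that phosphorylates CXCR4, rose by 0.55 (adjusted p = 0.0012, while its second probe set gave 0.16 and did not pass). *Arrb2*, which encodes β-arrestin 2, rose by 0.23 (adjusted p = 0.040, and 0.068 with the block). The second probe set of *Arrb2* rose by 0.42 and passed in both fits (adjusted p = 0.021, and 0.012 with the block). *Rgs10*, which shortens G-protein signals, fell by 0.76 on the log2 scale (adjusted p = 6.9e-04), as did *Rgs3* (-0.73) and the deubiquitinase gene *Usp14* (-0.49). *Cd74*, a receptor chain for MIF and the invariant chain of MHC class II, went from 12.46 ± 0.15 (SD, n = 4) to 11.26 ± 0.32 (SD, n = 4), a difference of -1.20 (adjusted p = 7.8e-04). *Dpp4*, whose product cleaves CXCL12, went from 6.40 ± 0.95 (SD, n = 4) to 3.63 ± 0.26 (SD, n = 4), a 6.82-fold decrease (adjusted p = 0.0015). *Itch*, the ubiquitin ligase of CXCR4, had a difference of -0.28 and did not pass (adjusted p = 0.065).

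**Figure D4:**
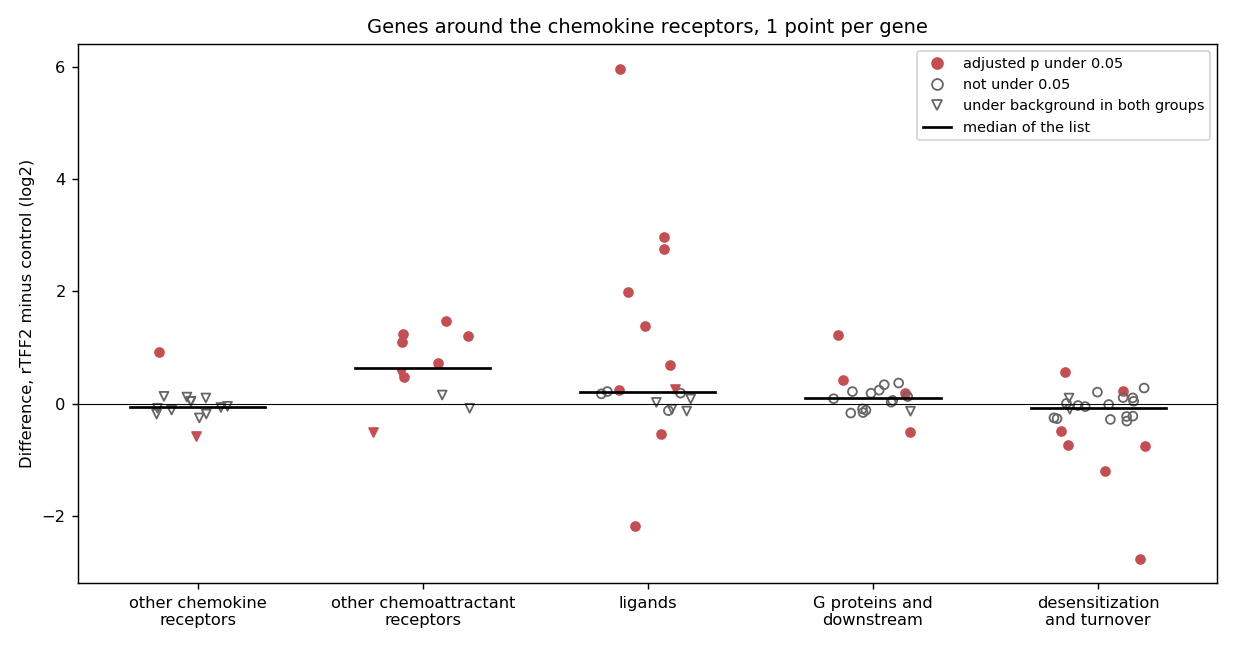
Difference between rTFF2 and control cultures (log2, vertical axis) of the genes in 5 lists around the chemokine receptors, each gene 1 point, red and solid if past the limma threshold of 0.05, triangles where both means were under background, and a black line at the median of the list. *Cxcl5* stands highest at 5.97 and *Dpp4* lowest at -2.77, and nearly all other chemokine receptors are triangles near 0.

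One measure of RNA quality moved with the groups. On the log2 scale the 3′ probe set of *Actb* exceeded the 5′ one by 0.53 ± 0.09 (SD, n = 4) in the control cultures and by 0.70 ± 0.05 (SD, n = 4) with rTFF2, and a larger excess goes with degraded RNA. The excess was 0.42 to 0.62 in the control cultures and 0.66 to 0.74 with rTFF2, so the groups did not overlap. With this excess as a covariate, a fit added once the data had been seen, *Cxcr4* (difference 1.09, adjusted p = 0.013) and *Cxcr2* passed. Of the 14 probe sets no others did. Because the covariate follows the groups, this fit cannot separate RNA quality from rTFF2, whether a probe set passed in it or not.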

How the data were processed

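RNA of 8 cultures was measured on Affymetrix mouse genome arrays. The authors deposited log2 signals from GCRMA (GCRMA 2.30.0 and affy 1.36.0 in the submitters' processing notes), which corrects background by probe base content, normalizes the arrays and summarizes each probe set. Scanner files and scan dates were not used here. Groups and animal numbers came from the sample labels.

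Of 22690 probe sets 64 controls were left out, and 22626 entered limma 3.58.1 under R 4.3.3 (lmFit, eBayes), 4 arrays against 4, with adjustment after Benjamini and Hochberg across all 22626 and a threshold of 0.05. The methods name limma and no pairing for it. Of the 22626 probe sets 4927 passed in this fit, and 5811 passed with the mouse as a block. The larger count is the nearer to the number that the methods report at the same threshold. Symbols came from the platform annotation, with 1 symbol for 20380 probe sets, several for 691 and none for 1555, and were checked by gene identifier against RefSeq on GRCm38.p6 (0 updated, 29 identifiers not found). A gene in a list stands for its brightest probe set by mean. Folds against a group mean at or under background use the background level and are lower bounds. The fit was tested on simulated data. The number of arrays limits the precision.

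The labels give each control culture and an rTFF2 culture the same animal number, and by the methods the sorted cells of an animal were shared out over both, so that cultures are paired. Deviations from the group means over 13146 probe sets correlated within mice 1 to 4 at 0.05, 0.54, 0.31 and 0.39 and between mice at -0.54 to 0.34. The block was an alternative, beside a filter on dim probe sets, median centring, quantile normalization, an offset of 32, other priors and weights, leaving out arrays, the mean of a gene's probe sets, a 0.01 threshold and a test for changes beyond 1.5-fold.

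The 9 genes, the lists and the tests were chosen with earlier results of these data known. Named were all probe sets of the 9 genes, the other chemokine receptors, and of each other list of the pathway the members past the threshold where 3 or fewer, otherwise up to 4 with the smallest adjusted p. Other names, such as *Mif*, *Itch* and *Gnai2*, are examples chosen after their values were seen. Marker lists are given by counts and sums, with a few names. One item was withheld and is not reported here.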

Additional observations from a re-analysis of the deposited data

Results flagged for a closer look

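In 56 sets of 4 arrays, each a probe set of a chemokine receptor or ligand in 1 group, the highest or lowest array was compared with the others, and chance alone marks about 1 in 20 of such sets. For *Cxcl12* (1417574_at) the control culture of mouse 4 stood at 1.59 and the other 3 between 1.69 and 1.70, all under background. For *Cx3cr1* (1450020_at) the rTFF2 culture of mouse 2 stood at 4.12, below the others at 4.64 to 4.73 and above background. For *Ackr2* (1422111_at) the rTFF2 culture of mouse 1 stood at 1.98 and the others between 2.20 and 2.24, all under background.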

How the results depend on the processing

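Each of the 14 probe sets was fitted under up to 17 alternatives, which gave 233 differences. Of these 214 kept their sign and their side of the threshold, 11 no longer passed, 7 newly passed and 1 changed sign. *Cxcr4* and *Cxcr2* passed in all 17. With the mouse as a replicate block 8 of the 14 passed in place of 5. With the *Actb* covariate, which did not overlap between the groups, 2 passed, both higher. Against a 1.5-fold change, a test apart from the 17, 2 passed, *Cxcr2* higher and *Ccr7* lower, and *Cxcr4* did not pass. From 4 to 6 passed when single arrays were left out. *Ackr3* ranged from -1.02 to 0.18 when single arrays were left out, and was above 0 only without control replicate 4. With the *Actb* covariate it was -2.86. Of the other chemokine receptors 1 passed in place of 2 with the filter on dim probe sets, which removes *Ccr6*. With the *Actb* covariate 1 passed too, which was lower, and the rise of *Ccrl2* no longer passed. Over all probe sets 4927 passed, 2295 with the *Actb* covariate, 2417 at a threshold of 0.01 and 372 against a 1.5-fold change. Median centring gave 5136, of which 2152 were higher, against 2636 of 4927. Probe sets near background, those of *Cxcl12*, *Ccr3* and the dimmest of *Ccr2* and *Cx3cr1*, cannot show how far a change reached. The causes of these shifts were not tested, and the block changed no other call among the 14 probe sets.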
